A study of Drosophila mojavensis with 137 samples.

Results

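The extremely female-biased transcripts of the desert fly Drosophila mojavensis, whose larvae feed in rotting cactus, were the 40 of 14528 measured transcripts whose mean over virgin female arrays exceeded their mean over virgin male arrays by more than 4 on the log2 scale (16-fold), and they were chosen by these measured values. All arrays carried RNA of whole wild-type flies, raised in bottle cultures and labelled with Cy3 on a one-colour design. They differed in population (Las Bocas, Sonora, or Punta Prieta, Baja California), rearing cactus (agria or organ pipe), sex, mating state (mated or virgin) and egg-to-adult development time (14, 15, 16, 17 or 18 days). The age of the adults and the number of flies per extract are not recorded in the labels. Of 137 arrays, 135 were used, 61 of females (42 virgin, 19 mated) and 74 of males (53 virgin, 21 mated). The female arrays comprised 11 Las Bocas agria virgins, 6 Las Bocas agria mated, 8 Las Bocas organ pipe virgins and 1 Las Bocas organ pipe mated. Punta Prieta females gave 11 agria virgin, 5 agria mated, 12 organ pipe virgin and 7 organ pipe mated arrays.

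In adult female flies much of the body is ovary, where germline stem cell descendants, nurse cells and follicle cells build eggs loaded with maternal RNA, yolk, a vitelline membrane and an eggshell. Many transcripts made for the egg and its shell are nearly absent from males, and organs found only in females, such as the sperm storage organs, add others. In Drosophila, mating is known to change egg production and ovulation through the male's seminal fluid, and egg production also depends on nutrition. Neither the files nor the reference table pair the transcript identifiers with gene names (0 of 14528 matched among 15130 genes), so the members are given by identifier, and neither their roles nor markers of ovary, fat body or other tissues could be looked up. In whole flies, fewer cells of a type and less RNA per cell cannot be told apart.

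Several arrays stood apart. The arrays left out were a Las Bocas organ pipe mated female array of 16 days (replicate 1), on which the members averaged 9.42, and a Punta Prieta organ pipe mated male array of 16 days (replicate 2), on which they averaged 14.17. On the arrays used, the mean of the 40 members lay between 13.74 and 14.35 in virgin females (median 14.06), between 13.88 and 14.38 in mated females (median 14.18), between 8.65 and 9.50 in virgin males and between 8.86 and 9.20 in mated males. The 4 female arrays with the narrowest spread of values were set apart with earlier results known. They were picked as those of lowest sex score, a measure not detailed here. These were the Las Bocas agria mated arrays of 14 days, replicate 1, and of 15 days, replicates 1 and 2, and the Punta Prieta agria virgin array of 14 days, replicate 1. Their member means (13.88 to 14.02) lay inside the range of the other 57 female arrays (13.74 to 14.38), while their male-biased transcripts averaged 9.70 to 9.90 (8.79 to 10.38 on the others) and the SD over all transcripts was 1.60 to 1.65 against 1.68 to 1.90. Their member mean exceeded the male-biased mean by 4.05 to 4.19, and that excess was smaller on 1 other female array, Las Bocas agria virgin, 16 days, replicate 1 (3.66). Results without the 4 narrow arrays are given below, and leaving out that array as well moved a count of members by over 1.5 times further only where stated. A further 3 virgin female arrays differed in a few members and are described below. The descriptions of 3 arrays contradict their titles. Replicate 1 of the Las Bocas organ pipe mated females, left out above, is among them, and the others were kept as titled. Those kept include replicate 2, the only array used for mated Las Bocas females on organ pipe.

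The selecting contrast, S, ranged from 4.04 to 6.42 (median 4.85), which is 16.4- to 85.7-fold. It chose the members and is given as a description only. FBtr0161796 had the highest S, 6.42, and FBtr0163649 the next, 6.40. The members just inside the threshold were FBtr0161868 at 4.07 and FBtr0162061 at 4.04, and the transcripts just outside were FBtr0174282 and FBtr0165777, both at 3.97. The threshold therefore cut a continuous range. A further 288 transcripts had S between 2 and 4. With S taken from part of the virgin arrays, 37 members stayed over 4 in Las Bocas, 39 in Punta Prieta, 38 on agria and 39 on organ pipe, with the lowest member at 3.49, in Las Bocas.

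In virgin females the members were bright transcripts. Their mean levels there ran from 11.83 to 15.43 with a median of 14.07, against a median of 11.34 over all transcripts, and 28 of the 40 were in the top 10% and 6 in the top 1%. In virgin males the same transcripts had means from 7.32 to 10.68 (median 8.99, all transcripts 11.36). All 40 lay below the male median and 37 in the bottom 25%, the highest at the 37.3rd percentile. These means are the values the selection used, and a percentile ranks signals of different probes, so both are description.

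FBtr0166726 was the brightest member in virgin females, with a lowest value of 15.05, a median of 15.44 and a highest of 15.75 over 42 arrays. In virgin males it ran from 9.65 over a median of 10.73 to 11.92. The brightest values on a virgin female array lay between 15.48 and 15.89 (mean 15.70), and 7 members had a mean within 1 of that mean maximum, so their range upwards was short. At the other end FBtr0165389 ran from 10.67 to 12.56 in virgin females (median 11.80) and from 6.80 to 8.51 in virgin males (median 7.30), and FBtr0165701 from 11.04 to 13.08 (median 12.55) against 7.59 to 8.44 (median 7.97). These dimmest members did not overlap between the sexes either. On the virgin arrays that the rule used, 38 of the 40 members had every female array above every male array (13.8% of all transcripts did).

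**Figure D1:**
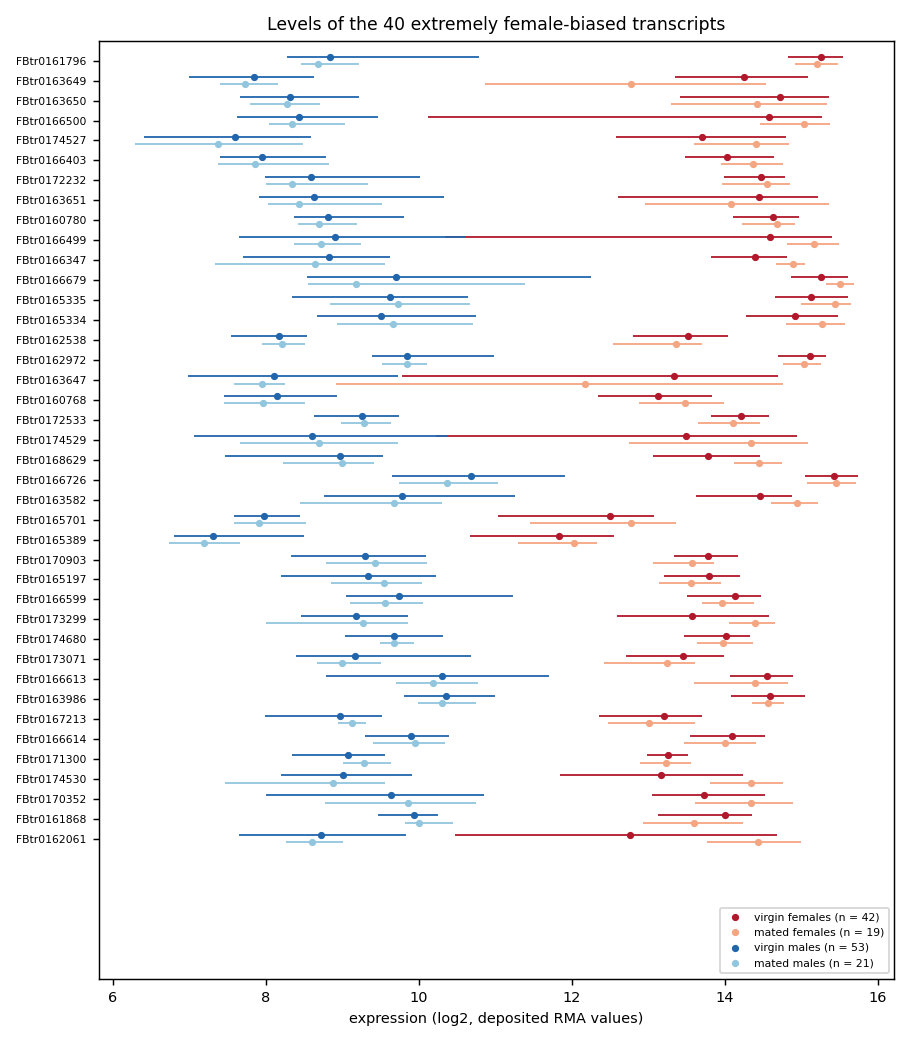
Level of each of the 40 members (rows, ordered by S, highest at the top) on the deposited log2 scale (horizontal axis). Points are group means and lines run from the lowest to the highest array, for virgin females (n = 42), mated females (n = 19), virgin males (n = 53) and mated males (n = 21). The female points lie between about 11.83 and 15.5 and the male points below 10.7, and the lines of mated females and mated males never meet.

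The members differed in how much they varied among virgin females of one group. The residual SD, after removing the means of groups of the same population, cactus and day, had a median of 0.253 over the members and 0.256 over all transcripts (27 residual degrees of freedom), with 20 members above that overall median and 20 below. It ranged from 0.126 to 1.19, and 8 members were above the 90th percentile of all transcripts. FBtr0171300 was among the steadiest (residual SD 0.126), with 12.99, 13.27 and 13.52 as its lowest, median and highest values, as was FBtr0162972 (0.138), with 14.70, 15.14 and 15.33. FBtr0166500 and FBtr0166499 varied most, with residual SDs of 1.19 and 1.13, and both values came from a few arrays.

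The 3 arrays in question were virgin females of 16 days: Las Bocas agria replicates 3 and 4, and Punta Prieta organ pipe replicate 1. On these FBtr0166500 read 10.35, 10.29 and 10.13, while the other 39 virgin female arrays ran from 13.05 to 15.27 with a median of 15.04. FBtr0166499 read 10.83, 10.74 and 10.34 against 12.70 to 15.40 (median 15.00). The gap to the median was 27.0-fold for FBtr0166500 and 19.1-fold for FBtr0166499, and the 3 values overlapped with none of the others. The highest virgin male values of these members were 9.47 and 10.61, so FBtr0166499 lay inside the male range on 1 of the 3 arrays and above it on 2, and FBtr0166500 lay above it on all 3.

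On the same 3 arrays FBtr0174527 (14.43, 14.61 and 14.80) and FBtr0173299 (14.37, 14.59 and 14.39) lay above the other 39 virgin arrays, whose highest values were 14.41 and 14.17. The mated females had medians of 14.47 and 14.40 for these members. For FBtr0163649 and FBtr0162061, with the largest fall and rise after mating, the 3 arrays stayed in the range of the other virgins. They read 14.31, 14.69 and 14.54 (mated median 12.71) and 11.89, 13.17 and 13.52 (mated median 14.44). FBtr0163647 stayed in that range too, at 12.54, 13.32 and 12.65 (mated median 12.05). FBtr0174530, with the second largest rise, read 13.88, 13.90 and 14.25, inside its mated range (13.82 to 14.76). Its other virgin arrays reached 13.97. FBtr0161868 read 13.75, 13.15 and 13.13 (other virgins from 13.60, mated median 13.56). The arrays were picked after these values were seen. Of all 14528 transcripts, 70 were lower and 114 higher on the 3 arrays than on every other virgin female array, and the gap exceeded 1 for FBtr0166500 and FBtr0166499 alone. On the 3 arrays 57, 101 and 283 of all transcripts lay over 1 from their mean over virgin females, within the range of 14 to 1373 over the 42 arrays. The first of the arrays is one whose description gives another development time than its title (15 days). Without the 3 arrays, the residual SD of FBtr0166500 was 0.262 and that of FBtr0166499 0.339, the members' median was 0.210 (all transcripts 0.243), and S exceeded 4 for all 40 members.

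**Figure D2:**
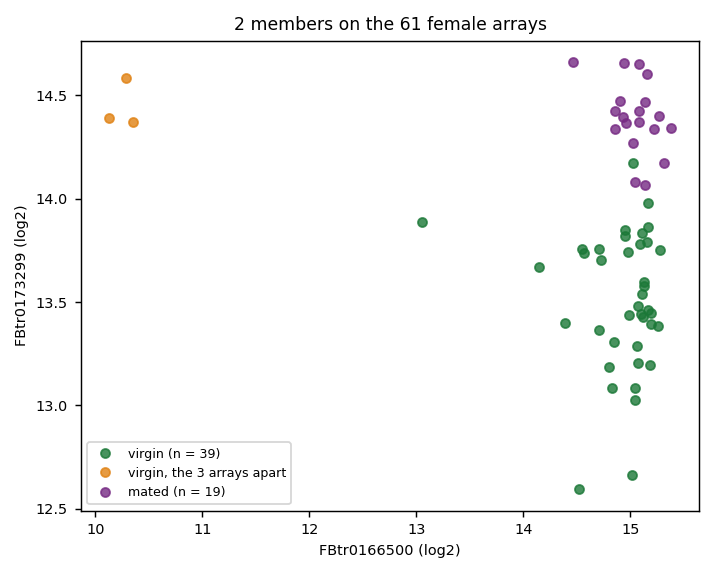
Level of FBtr0166500 (horizontal axis, log2) against FBtr0173299 (vertical axis, log2), 1 point per female array. The 3 virgin arrays apart lie at 10.13 to 10.35 for FBtr0166500, the other 39 virgin arrays at 13.05 or more, and the same 3 arrays lie at 14.37 to 14.59 for FBtr0173299, above the other virgin arrays.

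Some members had neighbouring identifier numbers: 5 runs with steps of at most 2 held 13 of the 40. In the run FBtr0163647, FBtr0163649, FBtr0163650 and FBtr0163651 the deviations from group means correlated at Pearson r of 0.49 to 0.91 over 36 virgin female arrays, and in the run FBtr0174527, FBtr0174529 and FBtr0174530 at 0.46 to 0.69. The pairs FBtr0166499 with FBtr0166500 (0.91), FBtr0165334 with FBtr0165335 (0.70) and FBtr0166613 with FBtr0166614 (0.46) had high values too, against a median of 0.098 over the 768 pairs outside the runs. The points share arrays, r ranged up to 0.90 outside the runs, and whether members of a run share probes or a gene is not recorded in the files. Members of a run may therefore not be separate measurements.

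Mated flies gave a test of the sex difference on arrays that the selecting contrast did not use. All 40 members were higher in mated females than in mated males (limma, adjusted p under 0.05), as were 56.9% of all transcripts, and 84% differed in either direction. The log2 difference ran from 3.58 to 7.0 with a median of 5.19, against a median of 0.27 over all transcripts. It exceeded 16-fold for 37 members, and for 53 transcripts in all (0.365%), of which 16 were not members. The 3 members below 16-fold were FBtr0171300 (3.95), FBtr0167213 (3.87) and FBtr0161868 (3.58), a naming made after their values were seen.

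FBtr0174527 had the largest difference of means in mated flies. It ran from 13.61 over a median of 14.47 to 14.84 in 19 mated females and from 6.29 over a median of 7.27 to 8.49 in 21 mated males. The groups did not overlap, and the log2 difference was 7.0 (SE 0.15, limma adjusted p = 1.07e-34), 128-fold. FBtr0166500 followed, at 14.46 to 15.38 (median 15.08) in mated females and 8.05 to 9.04 (median 8.31) in mated males, with a log2 difference of 6.68 (SE 0.07, limma adjusted p = 8.62e-45). On every mated female array it was above 14.4, so none of the mated arrays shared the low value of the 3 virgin arrays. For all 40 members each mated female array was above each mated male array, as for 16.1% of all transcripts, with gaps between the groups of 0.67 to 5.69 (median 4.01).

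Mating was compared in females next, within an additive model of population, cactus, mating state and linear development time. The virgin female arrays in it are also those of the selecting contrast, so members picked for high virgin values are not an unbiased sample for a fall or a rise. Of the 40 members 17 differed between mated and virgin females (limma, adjusted p under 0.05), 42.5% against 8.43% of all transcripts. Of these, 13 were higher after mating (3.37% of all transcripts were) and 4 lower (5.07%), with differences of 0.26 to 1.60 and of -1.49 to -0.33. Among the 288 transcripts with S between 2 and 4, 149 differed (51.7%), 28 higher and 121 lower. The median difference was 0.04 over the members, 0.01 over all transcripts and -0.18 over those 288. Whether the 2 classes differ was not tested.

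FBtr0162061, the member of lowest S, had the largest rise. Virgin females ran from 10.48 over a median of 12.90 to 14.68, and mated females from 13.77 over 14.44 to 15.00. All 19 mated arrays were above the virgin mean and 3 above the highest virgin array, and the log2 difference was 1.60 (SE 0.15, limma adjusted p = 3.65e-17), 3.04-fold. In virgin females this was one of the more variable members (residual SD 0.81), and in mated females the SD was 0.31.

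FBtr0174530 rose by 1.14 (SE 0.11, limma adjusted p = 7.19e-16), 2.21-fold. Its virgin values ran from 11.84 over a median of 13.29 to 14.25 and its mated values from 13.82 over 14.41 to 14.76. All 19 mated arrays were above the virgin mean, and 11 were above the highest virgin array.

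FBtr0163649, the member of second highest S, had the largest fall. Virgin females ran from 13.35 over a median of 14.23 to 15.09, and mated females from 10.86 over 12.71 to 14.55. The log2 difference was -1.49 (SE 0.15, limma adjusted p = 2.55e-15), 2.80-fold lower. Of the 19 mated arrays 17 were below the virgin mean and 13 below the lowest virgin array, while 2 were above the mean.

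FBtr0163647, which stands in the same run of identifiers, fell by 1.24 (SE 0.22, limma adjusted p = 9.25e-06). It ran from 9.78 over a median of 13.49 to 14.69 in virgin and from 8.92 over 12.05 to 14.76 in mated females, so the groups overlapped widely. Of 19 mated arrays 15 were below the virgin mean, 1 was below the lowest virgin array and 1 above the highest.

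The mated arrays of these falling members spread widely. In Las Bocas agria mated females FBtr0163649 ran from 12.48 to 14.07 and FBtr0163647 from 10.52 to 13.17, and in Punta Prieta agria from 11.68 to 13.53 and from 11.18 to 13.56. In Punta Prieta organ pipe mated females, where a gap was seen, FBtr0163649 read 11.85 and 11.55 at 15 days, 11.73, 10.86 and 14.55 at 16 days, and 14.40 and 14.14 at 17 days. FBtr0163647 read 11.34, 11.33, 10.97, 8.92, 14.76, 14.40 and 14.23 on the same arrays in the same order. The 16 day replicate 3 and both 17 day arrays were thus inside the range of the Punta Prieta organ pipe virgins for both members (13.81 to 15.09 and 12.65 to 14.69, with 14.76 just above the latter). On those 3 arrays FBtr0162061 read 14.44, 14.43 and 14.23, below the 15.00, 14.86, 14.66 and 14.58 of the other mated arrays of their group. The virgins of the group ran from 11.51 to 14.68, so 14.66 and 14.58 lay inside their range as well. FBtr0174530 read 14.53, 14.54 and 14.49 against 14.56, 14.13, 14.47 and 14.24 on the other 4.

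**Figure D3:**
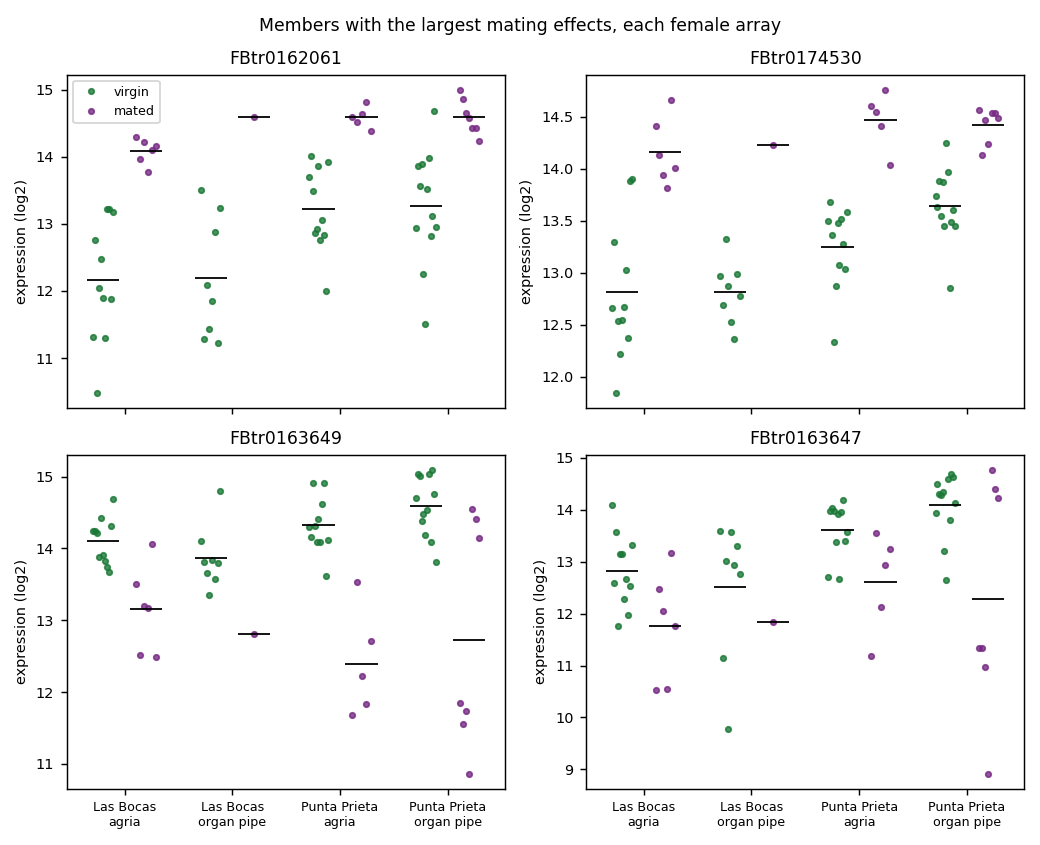
Levels (vertical axis, log2) of the 4 members with the largest mating effects on each female array, by population and cactus (horizontal axis), virgin in green and mated in purple, with a bar at each mean. Mated points sit above most virgin points for FBtr0162061 and FBtr0174530, while for FBtr0163649 and FBtr0163647 3 of the 7 Punta Prieta organ pipe mated arrays sit among the virgin ones.

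For none of the 40 members, nor for any transcript of the table (0% of 14528), did mated and virgin females separate without overlap. Members that did not pass the test included the brightest, FBtr0166726 (0.02, 95% interval -0.12 to 0.15), and the one of highest S, FBtr0161796 (-0.05, interval -0.19 to 0.09). Without the 4 narrow arrays 15 members passed (4.38% of all transcripts), 12 higher and 3 lower, all of them among the 17. Without the 3 virgin arrays that stood apart 23 passed (12.6%), 14 higher and 9 lower, among them all 17. With all 137 arrays, thus with the 2 that were left out, 11 passed (13.7%), 3 higher and 8 lower. Leaving out replicate 1 of every group left 10 (8 higher, 2 lower, 3.99% of all transcripts).

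**Figure D4:**
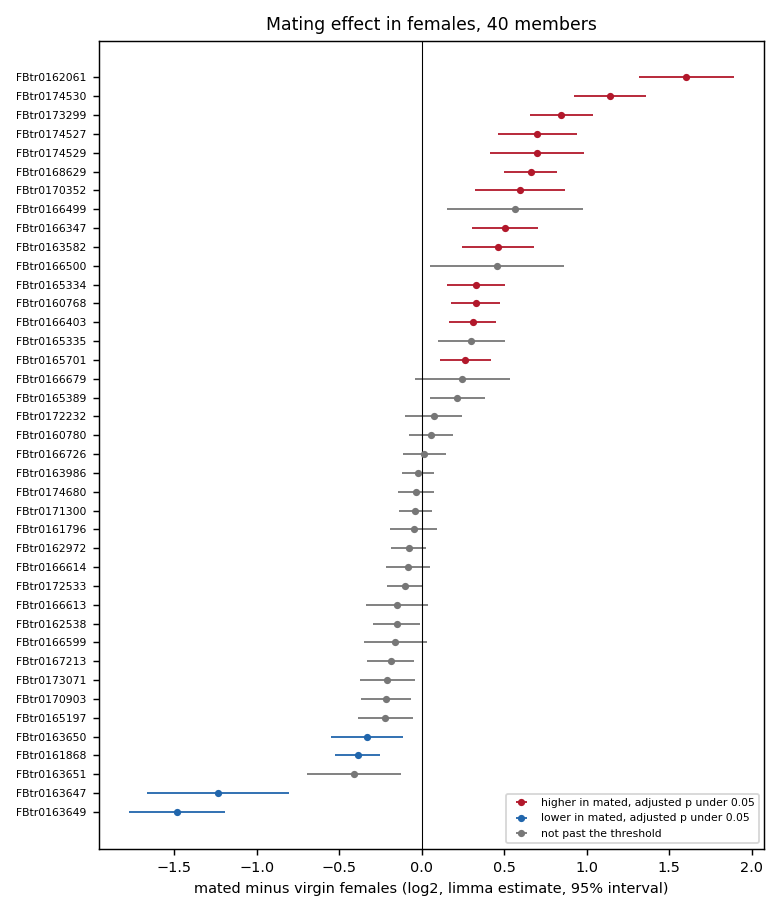
Mated minus virgin difference of each member in females (horizontal axis, log2, limma estimate with its unadjusted 95% interval), ordered by size. Red marks the 13 members higher and blue the 4 lower after mating at an adjusted p under 0.05, and grey the 23 that did not pass.

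The mating comparison could be made in 3 strata. In Las Bocas females reared on agria 19 members differed, 14 higher and 5 lower, where 44% of all transcripts differed (19.8% higher, 24.2% lower). Of the 6 mated arrays there 3 are narrow ones. Without the 4 narrow arrays 4 members passed, all higher, as did 0.186% of all transcripts, and without the Las Bocas agria virgin array of 16 days, replicate 1, as well, 2 passed (0.165%). In Punta Prieta females on agria 10 differed, 8 higher and 2 lower, against 6.19% of all transcripts (3.85% higher, 2.34% lower). In Punta Prieta females on organ pipe 5 differed, 3 higher and 2 lower, against 0.688% of all transcripts (0.619% higher, 0.0688% lower). Without replicate 1 of every group the counts were 4, 4 and 2 in the same order (3.68%, 1.07% and 0.365% of all transcripts), and without replicate 2 the first was 10 (37.3%) and the last 2 (0.234%).

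FBtr0162061 rose in every stratum. In Las Bocas agria it ran from 10.48 over 12.05 to 13.23 in virgin and from 13.77 over 14.13 to 14.30 in mated females, with a difference of 1.93 (SE 0.27, limma adjusted p = 2.24e-07). The groups did not overlap there. In Punta Prieta agria mated females it read 14.60, 14.52, 14.64, 14.82 and 14.38 against 11.99 to 14.02 in virgins (median 13.06), a difference of 1.37 (SE 0.29, limma adjusted p = 5.85e-04). Every mated array was above every virgin array. In Punta Prieta organ pipe females it ran from 14.23 over 14.58 to 15.00 in mated against 11.51 over 13.32 to 14.68 in virgin flies, a difference of 1.33 (SE 0.25, limma adjusted p = 2.72e-04).

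FBtr0174530 had the second largest rise past the threshold in each stratum, with differences of 1.34 in Las Bocas agria (SE 0.20, limma adjusted p = 6.38e-07), 1.22 in Punta Prieta agria (SE 0.21, limma adjusted p = 1.29e-05) and 0.78 in Punta Prieta organ pipe females (SE 0.18, limma adjusted p = 0.00786). FBtr0163649 fell in each. In Punta Prieta agria mated females it read 11.68, 13.53, 12.22, 11.83 and 12.71 against 13.61 to 14.91 in virgins, with no overlap, and the difference was -1.92 (SE 0.27, limma adjusted p = 1.76e-07). In Punta Prieta organ pipe females the difference was -1.89 (SE 0.24, limma adjusted p = 1.18e-08) and in Las Bocas agria -0.93 (SE 0.26, limma adjusted p = 0.00426). That last call was lost without the 4 narrow arrays (-1.10, SE 0.34, limma adjusted p = 0.374), while FBtr0162061 (1.91, adjusted p = 6.38e-04) and FBtr0174530 (1.46, adjusted p = 3.16e-04) kept theirs. In Punta Prieta organ pipe females the SD of FBtr0163649 was 1.57 over 7 mated and 0.42 over 12 virgin arrays. Its SE and p-value there come from the shared spread and do not measure that of the mated arrays.

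FBtr0163647 fell in Punta Prieta organ pipe females (-1.87, SE 0.37, limma adjusted p = 6.76e-04) and in Las Bocas agria females (-1.03, SE 0.40, limma adjusted p = 0.0310). Over the 7 mated Punta Prieta organ pipe arrays its SD was 2.21, which the SE there does not measure. The Las Bocas call was lost without the 4 narrow arrays, and the lowest mated values there, 10.52 and 10.56, were on such arrays. FBtr0163647 missed the threshold in Punta Prieta agria females (-0.99, SE 0.42, limma adjusted p = 0.164). There the second largest fall past the threshold was that of FBtr0161868, with values of 13.02, 13.23, 13.55, 13.16 and 14.13 in mated and 13.93 to 14.36 in virgin females. Its difference was -0.72 (SE 0.13, limma adjusted p = 2.74e-05), and 1 mated array lay inside the virgin range.

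The mating effect on agria differed between the populations for 4 members, 2 in each direction, where 26.8% of all transcripts differed. FBtr0165701 moved by 0.55 in Punta Prieta and -0.10 in Las Bocas (difference 0.65, SE 0.21, limma adjusted p = 0.0188), and FBtr0165389 by 0.59 and -0.06 (difference 0.65, SE 0.22, limma adjusted p = 0.0267). FBtr0163649 moved by -1.92 and -0.93 (difference -0.99, SE 0.38, limma adjusted p = 0.0421), and FBtr0161868 by -0.72 and -0.29 (difference -0.44, SE 0.17, limma adjusted p = 0.0496). The share of members, 10%, was below that of all transcripts. Without the 4 narrow arrays 0 of 40 members and 0% of all transcripts passed (limma). The differences of FBtr0163649 (-0.80, SE 0.44) and FBtr0161868 (-0.55, SE 0.20) then had limma adjusted p of 0.702 and 0.601. Those of FBtr0165701 (0.26, SE 0.20) and FBtr0165389 (0.41, SE 0.24) had 0.788 and 0.718. The lowest values of FBtr0165701 and FBtr0165389 among mated females, 11.46 and 11.30, were both on such arrays (Las Bocas agria, 14 days replicate 1, and 15 days replicate 2).

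Males gave a reference for the response to mating. Of the 40 members 2 differed between mated and virgin males, against 9.31% of all transcripts (6.76% higher, 2.55% lower). These were FBtr0171300, upward by 0.20 (SE 0.05, limma adjusted p = 0.00163), and FBtr0172232, downward (-0.25, SE 0.08, limma adjusted p = 0.0339). The mating effect itself differed between the sexes for 17 members (10.6% of all transcripts), 10 with the larger value in females (3.11%) and 7 with the smaller (7.5%). For FBtr0162061 it was 1.60 in females and -0.12 in males (difference 1.73, SE 0.20, limma adjusted p = 2.48e-11), and for FBtr0174530 it was 1.14 and -0.15 (difference 1.29, SE 0.15, limma adjusted p = 2.95e-11). For FBtr0163649 it was -1.49 and -0.08 (difference -1.41, SE 0.20, limma adjusted p = 8.82e-08). For FBtr0163647 it was -1.24 and -0.13 (difference -1.11, SE 0.30, limma adjusted p = 0.00843), a call lost without replicate 1 (-1.17, adjusted p = 0.174) and without replicate 2 of every group (-0.78, adjusted p = 0.0807). Male levels of the members were low, where differences on this scale can be compressed, which was not tested here. Without replicate 1 of every group 3 members passed (0.86% of all transcripts).

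Population was compared as Punta Prieta minus Las Bocas in females. In all, 9 members differed (limma, adjusted p under 0.05), 22.5% against 22.2% of all transcripts, a share near the background. Of these, 8 were higher in Punta Prieta (10.6% of all transcripts) and 1 lower (11.6%), with differences of 0.34 to 1.72 among the former. FBtr0174529 ran from 10.23 over a median of 12.80 to 13.99 in 26 Las Bocas females and from 13.40 over 14.61 to 15.10 in 35 Punta Prieta females. All 35 lay above the Las Bocas mean and 31 above the highest Las Bocas array, and the log2 difference was 1.72 (SE 0.14, limma adjusted p = 5.68e-21), 3.29-fold.

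FBtr0163647 was higher in Punta Prieta by 1.05 (SE 0.21, limma adjusted p = 5.36e-05), 2.08-fold. Its Las Bocas values ran from 9.78 over 12.62 to 14.10 and its Punta Prieta values from 8.92 over 13.92 to 14.76, so the groups overlapped over most of their range. Of 35 Punta Prieta arrays 29 were above the Las Bocas mean. FBtr0161868 was lower, with medians of 14.13 in Las Bocas and 13.84 in Punta Prieta (13.15 to 14.36 and 12.94 to 14.36). Its difference was -0.17 (SE 0.07, limma adjusted p = 0.0430), and the call was lost in 9 of 21 alternatives, in which adjusted p reached 0.966.

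**Figure D5:**
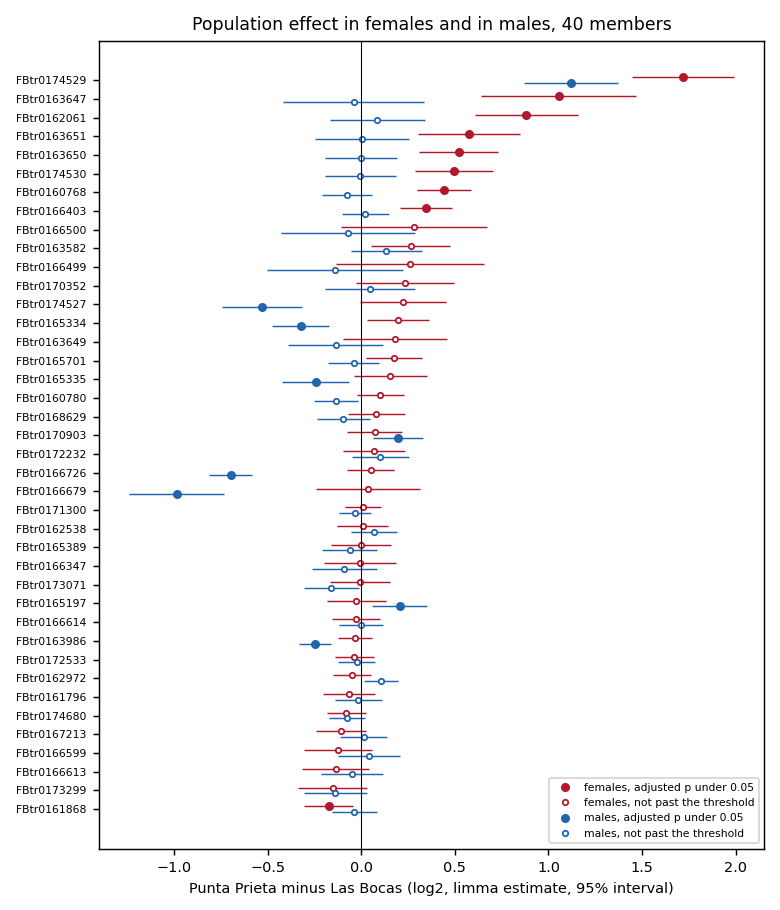
Punta Prieta minus Las Bocas difference of each member (horizontal axis, log2, limma estimate with its unadjusted 95% interval) in females (red) and males (blue), with filled points at an adjusted p under 0.05. FBtr0174529 is filled to the right of 0 in both sexes, 8 further members are filled in females alone and 8 in males alone.

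In males 9 members passed too (22.2% of all transcripts), 3 higher (9.26%) and 6 lower (13%) in Punta Prieta, and FBtr0174529 was in both sets of 9. Over all transcripts 1082 passed in both sexes, 33.5% of the calls of each. Passing in 1 sex and not in the other is no test of a difference, which is given below. In males FBtr0174529 ran from 7.06 over 8.02 to 8.72 in Las Bocas and from 7.79 over 9.18 to 10.38 in Punta Prieta, a difference of 1.12 (SE 0.13, limma adjusted p = 9.00e-13). FBtr0166679 had the largest opposite difference in males, -0.99 (SE 0.13, limma adjusted p = 2.94e-10), with 8.85 over 10.04 to 12.25 in Las Bocas and 8.54 over 8.91 to 11.70 in Punta Prieta. FBtr0166726 followed with -0.70 (SE 0.06, limma adjusted p = 5.59e-20).

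The population effect differed between the sexes for 14 members, all 14 with the larger value in females, where 12.4% of all transcripts differed, 6.4% in that direction and 5.96% in the other. FBtr0163647 was the largest (1.05 in females, -0.04 in males, difference 1.09, SE 0.28, limma adjusted p = 0.00496). Its call was lost in 2 of 18 alternatives, on the 15 and 16 day arrays (1.11, adjusted p = 0.0519) and without replicate 2 of every group (0.49, adjusted p = 0.314). FBtr0166679 followed with 0.04 in females and -0.99 in males (difference 1.02, SE 0.19, limma adjusted p = 5.53e-05). In females it ran from 14.87 to 15.70 in Las Bocas and from 15.05 to 15.68 in Punta Prieta, near the brightest values of an array. The count of members was 9 without replicate 1 (1.8% of all transcripts), 5 without replicate 2 of every group (3.17%), 7 on the 15 and 16 day arrays (4.13%) and 4 with all 137 arrays (8.53%).

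By stratum, 4 members differed between populations in virgin agria females (2.44% of all transcripts, 0.895% higher and 1.55% lower), all higher in Punta Prieta. In virgin organ pipe females 8 differed, 7 higher and 1 lower (11.6% of all transcripts, 6.57% higher and 5.07% lower). In mated agria females 7 differed, 5 higher and 2 lower, where 36.4% of all transcripts did (19.6% higher, 16.8% lower). Without the 4 narrow arrays 0 members passed (0.523% of all transcripts), although the difference of FBtr0174529 was then 1.36 (SE 0.38, limma adjusted p = 0.0720). Without replicate 1 of every group the organ pipe count was 4 (1.37% of all transcripts) and the mated agria count 0 (0.289%), and without replicate 2, 3 or 4 the virgin agria count was 2. The virgin agria counts are given without the share of all transcripts, so a change of the members alone is not shown. FBtr0174529 was the largest in each stratum. Its virgin agria values ran from 11.60 over 12.72 to 13.99 in Las Bocas and from 13.40 over 14.23 to 14.62 in Punta Prieta, a difference of 1.50 (SE 0.22, limma adjusted p = 1.34e-07). In virgin organ pipe females they ran from 10.23 over 12.38 to 13.04 and from 13.79 over 14.60 to 14.94 without overlap, a difference of 2.28 (SE 0.24, limma adjusted p = 1.41e-13). In mated agria females the Punta Prieta arrays (14.51 to 15.10) were all above the Las Bocas arrays (12.75 to 13.95), a difference of 1.33 (SE 0.31, limma adjusted p = 0.00107).

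FBtr0163647 differed in virgin organ pipe females (1.69, SE 0.36, limma adjusted p = 5.78e-04), with values of 13.60, 11.15, 13.02, 9.78, 13.57, 12.94, 13.30 and 12.76 in Las Bocas and 12.65 over 14.30 to 14.69 in Punta Prieta. The lowest Las Bocas values were those of 15 days, replicate 2, and 16 days, replicate 2. FBtr0161868 was the member lower in Punta Prieta there (-0.39, SE 0.11, limma adjusted p = 0.00997). In virgin agria females FBtr0166500 was the second largest (1.08, SE 0.31, limma adjusted p = 0.0334), a comparison that holds 2 of the 3 arrays on which it read near 10, both in Las Bocas. Without the 3 arrays its difference was 0.30 (SE 0.14, limma adjusted p = 0.350), 5 members passed (2.29% of all transcripts), and 2 of the 4 first called were among them. In mated agria females FBtr0163651 followed (1.02, SE 0.32, limma adjusted p = 0.00994), and FBtr0163649 (-0.76, adjusted p = 0.0425) and FBtr0161868 (-0.34, adjusted p = 0.0488) were lower.

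For the rearing cactus 0 of the 40 members differed in females at an adjusted p under 0.05 (limma, 6 at an unadjusted p under 0.05), as did 0.344% of all transcripts. The differences, organ pipe minus agria, lay between -0.20 and 0.34, and the smallest adjusted p, for FBtr0160768, was 0.0879 (0.24, 95% interval 0.08 to 0.40). Without the 3 virgin arrays that stood apart 5 members were higher on organ pipe, and with a single one of them left out, Las Bocas agria 16 days replicate 4, also 5. FBtr0173299, the member of smallest adjusted p without the 3 arrays, then differed by 0.36 (SE 0.10, limma adjusted p = 0.0118) against 0.29 (adjusted p = 0.0989) with all arrays. The share of all transcripts was 11.8% without the 3 arrays, close to the 12.5% that 5 of 40 make. Of the 3 arrays 2 are of agria, and they were picked with their high values of FBtr0173299 and FBtr0174527 seen, so these calls are no independent result. With array weights 10 members passed (39.1% of all transcripts), and without the arrays of contradicting description 2 did (4.42%). Of the latter arrays, the Las Bocas organ pipe mated female array of 16 days, replicate 1, was already out of the main fit.

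By stratum, 0 members differed between cacti in Las Bocas virgin females (limma, 2 at an unadjusted p under 0.05, 0% of all transcripts) and 0 in Punta Prieta mated females (0 unadjusted, 0% of all transcripts). In Punta Prieta virgin females 7 differed, 5 higher and 2 lower on organ pipe, where 18.4% of all transcripts differed (9.44% higher, 8.98% lower). The count was 0 without replicate 1 and 2 without replicate 2 of each group. Whether all transcripts moved alike in these alternatives is not given here. FBtr0174527 ran from 12.74 over 13.46 to 14.24 on agria and from 13.35 over 14.08 to 14.80 on organ pipe, a difference of 0.57 (SE 0.19, limma adjusted p = 0.0257), and FBtr0173299 differed by 0.52 (SE 0.15, limma adjusted p = 0.0111). FBtr0161868 ran from 13.93 over 14.17 to 14.36 on agria and from 13.13 over 13.76 to 14.02 on organ pipe, with a difference of -0.42 (SE 0.10, limma adjusted p = 0.00326), and FBtr0167213 differed by -0.36 (SE 0.11, limma adjusted p = 0.0158). The groups overlapped for all of these. The cactus effect in virgins differed between the populations for 0 members (limma, 6 at an unadjusted p under 0.05) and for 0% of all transcripts (1 member and 0.785% without the 4 narrow arrays and the Las Bocas agria virgin array of 16 days, replicate 1), so a response in Punta Prieta alone is not shown.

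Development time was not related to any member in females at an adjusted p under 0.05 (0 of 40 by limma, 2 at an unadjusted p under 0.05, 0% of all transcripts). The slopes lay between -0.17 and 0.20 per day, and the smallest adjusted p was 0.174, for FBtr0174529 (-0.17 per day, 95% interval -0.32 to -0.02). Over virgin females the mean of the 40 members was 14.07 ± 0.17 at 14 days (SD, n = 7), 14.02 ± 0.16 at 15 days (n = 15), 14.01 ± 0.15 at 16 days (n = 13), 14.08 ± 0.22 at 17 days (n = 5) and 14.06 at 18 days (14.00 and 14.11). These means differed by less than the spread between arrays of 1 day. All virgin females of 17 and 18 days were reared on organ pipe, so at those days cactus and development time cannot be told apart.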

How the data were processed

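The values were the log2 expression values deposited by the authors, made with RMA per the submitters' processing notes (version and settings: not given in the sources used here). RMA gives arrays a near-common distribution, so a change in total RNA is not visible, and low values can be compressed. No scaling was added. Sequences of the members were not used here.

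Differences were fitted with limma 3.58.1 (lmFit, eBayes) in R 4.3.3 over 135 arrays and all 14528 transcripts, with Benjamini-Hochberg adjustment over all of them and a threshold of 0.05. Population, cactus, mating state and linear day were fitted within each sex, strata from means of population, cactus and mating cells within sex, and the sex difference in mated flies from the mated arrays alone. Contrasts of the same fit share 1 estimate of the spread per transcript, and the fit to the mated arrays alone has its own. The fit was tested on simulated data, and the outcome is not given here.

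Members and lists were chosen with earlier results of these data known. Named were, per effect, the 2 largest members past the threshold in each direction, and the 2 extremes of S, brightness and spread. The labels do not say whether replicates are separate cultures, so the spread behind each p-value may be technical. Same-numbered replicates of different groups did not deviate together (median r of -0.00352 over 2516 pairs), so the numbers were not taken as pairs.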

Additional observations from a re-analysis of the deposited data

Results flagged for a closer look

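In 8 cases an array lay far from the others of its group for a named member, of 110 group and member combinations tested, where chance flags about 1 in 20. FBtr0161796 read 15.21 on replicate 5 of the Las Bocas agria virgin females of 15 days (the next was 15.46), and 15.14 on the Punta Prieta agria virgin female array of 16 days, replicate 4 (the next 15.48). FBtr0162061 read 11.89 on replicate 3 of the Las Bocas agria virgin females of 16 days (the next 13.17), 1 of the 3 that stood apart, and 13.86 on the Punta Prieta agria virgin female array of 15 days, replicate 3, above its group. On the Punta Prieta organ pipe virgin female array of 15 days, replicate 4, FBtr0163647 read 13.20 (the next 14.29) and FBtr0163651 read 14.55 (the next 14.90). FBtr0166500 read 14.95 on replicate 2 of that group (the next 15.16), and FBtr0167213 read 13.71 on the Punta Prieta agria virgin female array of 16 days, replicate 2, above its group.

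An effect differed between groups in 10 tests. The mating effect differed between females and males by 1.73 for FBtr0162061, 1.29 for FBtr0174530, -1.41 for FBtr0163649 and -1.11 for FBtr0163647. The population effect differed between the sexes by 1.09 for FBtr0163647 and 1.02 for FBtr0166679. On agria the mating effect of Punta Prieta females differed from that of Las Bocas females by 0.65 for FBtr0165701, 0.65 for FBtr0165389, -0.99 for FBtr0163649 and -0.44 for FBtr0161868. Without the 4 narrow arrays the adjusted p (limma) was above 0.05 for all 4, with differences of 0.26, 0.41, -0.80 and -0.55.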

How the results depend on the processing

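The sex difference in mated flies was called for 40 members in each alternative that tested all 40 (38 were tested and called with dim transcripts filtered). Counts of members that moved by over 1.5 times were as follows. The share of all transcripts tested is given in brackets. With all 137 arrays, mating gave 11 (13.7%), population between the sexes 4 (8.53%) and mating between populations on agria 0 (13.9%). The last was also 0 without the 4 narrow arrays (0%) and on 15 and 16 day arrays (0.103%). It was 2 with dim transcripts filtered (31.9%), with array weights (37.5%) and without the 3 arrays apart (18.2%), and 1 with females alone (9.68%). Population between the sexes gave 7 on 15 and 16 day arrays (4.13%). Cactus gave 2 without the arrays of contradicting description (4.42%) and 1 after quantile normalization (1.62%). It gave 10 with array weights (39.1%) and 5 without the 3 arrays apart (11.8%). Cactus between populations gave 1 after quantile normalization (0.895%), 3 with weights (3.27%) and 1 with day as categories (0.915%). With weights, population gave 14 (31.8%) and day 2 (20.1%). Without the 4 narrow arrays, mating in Las Bocas agria gave 4 and population in mated agria 0. Without these and the Las Bocas agria virgin array of 16 days, replicate 1, mating in Las Bocas agria gave 2, population in mated agria 0, mating between populations 0 and cactus between populations 1.

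With each replicate number left out in turn, counts ran from 10 to 19 for mating, 6 to 10 for population, 0 to 5 for cactus, 3 to 18 for mating between sexes, 5 to 14 for population between sexes, 0 to 4 for mating between populations and 0 to 2 for cactus between populations. The shares of all transcripts ran from 3.99% to 9.74% for mating, 5.45% to 26.2% for population and 0% to 7.52% for cactus. They ran from 0.86% to 12.3% for mating between sexes and 1.8% to 14.6% for population between sexes. For mating between populations they ran from 0% to 34.2%, and for cactus between populations from 0% to 6.32%. By stratum the counts of members ran from 4 to 20 for mating in Las Bocas agria, 4 to 10 in Punta Prieta agria and 2 to 5 in Punta Prieta organ pipe. For population they ran from 2 to 6 in virgin agria, 4 to 8 in virgin organ pipe and 0 to 7 in mated agria, and for cactus in Punta Prieta virgins from 0 to 10. With each of 61 female arrays left out, mating ran from 16 to 22, population from 8 to 11 and cactus from 0 to 5. The counts by stratum and with single arrays left out are not set against the share of all transcripts here. No named member changed direction in the alternatives run for the effects over all females, and the 4 named for mating were called in each. Between the sexes, FBtr0163647 lost its call in 2 of 18 alternatives for mating and in 2 of 18 for population. With the replicate block, counts were 40 for sex, 18 for mating, 9 for population, 0 for cactus and 18 for mating between sexes, and no count moved by over 1.5 times. The replicate block counts are not set against the share of all transcripts either, so they say nothing particular to the members. The cause of these changes was not tested. The alternatives without the 3 arrays apart, without 5 arrays and of the strata were chosen after seeing the data. The number of arrays limits the precision, and slide effects were not analysed here.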
